A study of Homo sapiens with 12 samples.

Results

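The genes described here encode the interleukin-6 signalling route of myeloma cells, from the receptor at the surface to the proteins that switch the signal off. They comprised 10 genes of the 19775 that the platform annotation names by a probe set assigned to 1 gene alone: the receptor chains IL6R and IL6ST, the kinases JAK1 and JAK2, the transcription factor STAT3, the inhibitors SOCS1, SOCS2 and SOCS3, and the kinases PIM1 and PIM2. Their members were chosen by name, as every probe set (a group of probes for a transcript) that the annotation assigns to 1 of these genes, which gave 35 probe sets. H929, a human myeloma cell line, was profiled on 12 Affymetrix U133 Plus 2.0 arrays in 4 groups of 3. These were untreated cells, cells exposed for 24 hours to 250 nM CHR-3996, an inhibitor of histone deacetylases, cells exposed for 24 hours to 1 µM tosedostat, an inhibitor of aminopeptidases, and cells exposed to both compounds, called the combination. The cell line stands for 1 tumour, grown without the bone marrow cells that supply interleukin-6 in patients.

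Interleukin-6 binds the receptor chain encoded by IL6R, and the pair engages the shared signalling chain gp130, encoded by IL6ST. The kinases JAK1 and JAK2 on the inner side of the receptor then phosphorylate STAT3, which enters the nucleus and switches on genes that include SOCS3, PIM1 and PIM2. SOCS proteins bind the receptor or the kinases and end the signal, while PIM kinases favour survival and growth, and the route is known as a growth and survival pathway of myeloma plasma cells.

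The promoters of the 2 receptor chains are shown because these chains moved in opposite directions. The sequences are from RefSeq on GRCh38.p14 and cover the 250 bases before the annotated start, read on the gene's strand, with each CG pair in capitals. The IL6R promoter lies on the plus strand at chr1:154405093-154405342 and the IL6ST promoter on the minus strand at chr5:55994964-55995213.
IL6R: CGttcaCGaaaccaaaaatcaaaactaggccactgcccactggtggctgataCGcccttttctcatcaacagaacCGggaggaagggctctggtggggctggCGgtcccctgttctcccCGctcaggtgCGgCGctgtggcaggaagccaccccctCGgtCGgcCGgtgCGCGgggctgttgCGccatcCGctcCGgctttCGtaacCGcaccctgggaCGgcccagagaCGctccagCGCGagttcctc
IL6ST: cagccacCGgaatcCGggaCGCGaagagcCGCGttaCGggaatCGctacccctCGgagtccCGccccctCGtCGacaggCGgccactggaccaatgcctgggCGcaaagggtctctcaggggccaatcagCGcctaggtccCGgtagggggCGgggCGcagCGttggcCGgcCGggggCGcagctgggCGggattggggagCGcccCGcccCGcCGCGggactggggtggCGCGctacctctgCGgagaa
The IL6R sequence holds 22 CG pairs and the IL6ST sequence holds 31, more than 72% and 89.1% of the 35116 promoters of the same length. The table held 15 promoters for 9 of the 10 genes, with none for SOCS2. The palindromic STAT motif TTCNNNGAA, searched on both strands, was in 0 of the 15, beside 6.57% of all promoters, and its stricter form TTCCNGGAA, every match of which is also a match of the first, was in 0 of 15, beside 0.968% of all.

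The values are log2 expression values as the authors normalized them in dChip, so a difference of 1 is a 2-fold difference, and a level of 1 probe set cannot be set against that of another. The test covered the 36395 probe sets whose value exceeded an array's 40th percentile on 3 or more arrays. In a limma fit over all of them, a probe set with a p under 0.05 after Benjamini-Hochberg adjustment was called higher or lower. Of the 35 probe sets 27 passed this filter, and each gene kept at least 1. The 8 left out were 2 of IL6ST, 2 of SOCS1, and 1 each of JAK2, STAT3, SOCS2 and SOCS3. The labels call the replicates biological without naming separate cultures, and the p-values therefore reflect the spread between these samples only, which may be technical.

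Replicate arrays correlated at r of 0.978 to 0.983. The median value of an array was higher under CHR-3996 (5.26 ± 0.03, SD, n = 3) and the combination (5.29 ± 0.02) than in untreated cells (5.04 ± 0.04) or under tosedostat (5.05 ± 0.01). The median log2 fold change of all tested probe sets was 0.11 under CHR-3996 and 0.14 under the combination, and became -0.10 and -0.12 with quantile normalization and -0.11 and -0.10 with equal array medians. The share of all calls that were higher moved with it, from 65.1% to 47.6% and 47.2% under CHR-3996 and from 69.3% to 46.6% and 48.8% under the combination. The directions given below for called members held under both scalings, and calls against untreated cells that were lost under them are named. The difference of the 3′ and 5′ control probe sets of actin, a measure of RNA quality and of labelling, was 2.14 ± 0.17 in untreated cells, 1.59 ± 0.17 under CHR-3996, 2.09 ± 0.11 under tosedostat and 1.24 ± 0.15 under the combination. The same difference for GAPDH was 0.44 ± 0.06, 0.45 ± 0.06, 0.43 ± 0.08 and 0.35 ± 0.09 in the same order of groups. The part of either control in the results was not tested. All 7 plasma cell markers exceeded the 40th percentile on the 12 arrays, while CD3D of T cells, CD14 of monocytes and COL1A2 and COL3A1 of fibroblasts did so on none. Other genes of the same lists did so on all 12, namely CD3E and CD2, CSF1R, and COL1A1 and DCN, while LYZ did so on 4 and LUM on 1. The level of the monocyte list, as the mean of its 3 measured genes, was 3.93 to 4.47 in untreated cells, 4.82 to 5.01 under CHR-3996, 4.05 to 4.38 under tosedostat and 4.48 to 5.12 under the combination, and that of the 7 plasma cell markers was 11.870 to 12.001, 10.87 to 11.51, 11.98 to 12.14 and 11.33 to 11.39. The T cell list stood at 4.51 to 5.03, 3.95 to 4.90, 4.50 to 4.85 and 5.22 to 5.52, and the fibroblast list at 4.74 to 4.87, 4.51 to 4.83, 4.70 to 4.87 and 4.22 to 4.77. The part of these shifts in the results below was not tested.

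CHR-3996 moved the 2 chains of the receptor apart, raised both kinases and STAT3, and left the main probe sets of the 3 SOCS genes within the spread of the arrays. Of the 27 probe sets, 13 were called higher and 3 lower, beside 29.4% and 15.7% of all probe sets tested (45.1% in all), and 9 of the 16 calls were at least 2-fold. The share of 2-fold changes among all calls is not given here. The 3 lower calls were the 3 probe sets of IL6R. The higher calls comprised 3 of 5 probe sets for IL6ST, 3 of 5 for JAK1, 2 of 2 for JAK2, 3 of 3 for STAT3, 1 of 3 for SOCS3 and the 1 probe set of PIM1. With the 10 genes each represented by the brightest probe set, 5 were higher and 1 was lower, beside 31.7% and 18% of 15587 genes (49.7% in all).

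**Figure D1:**
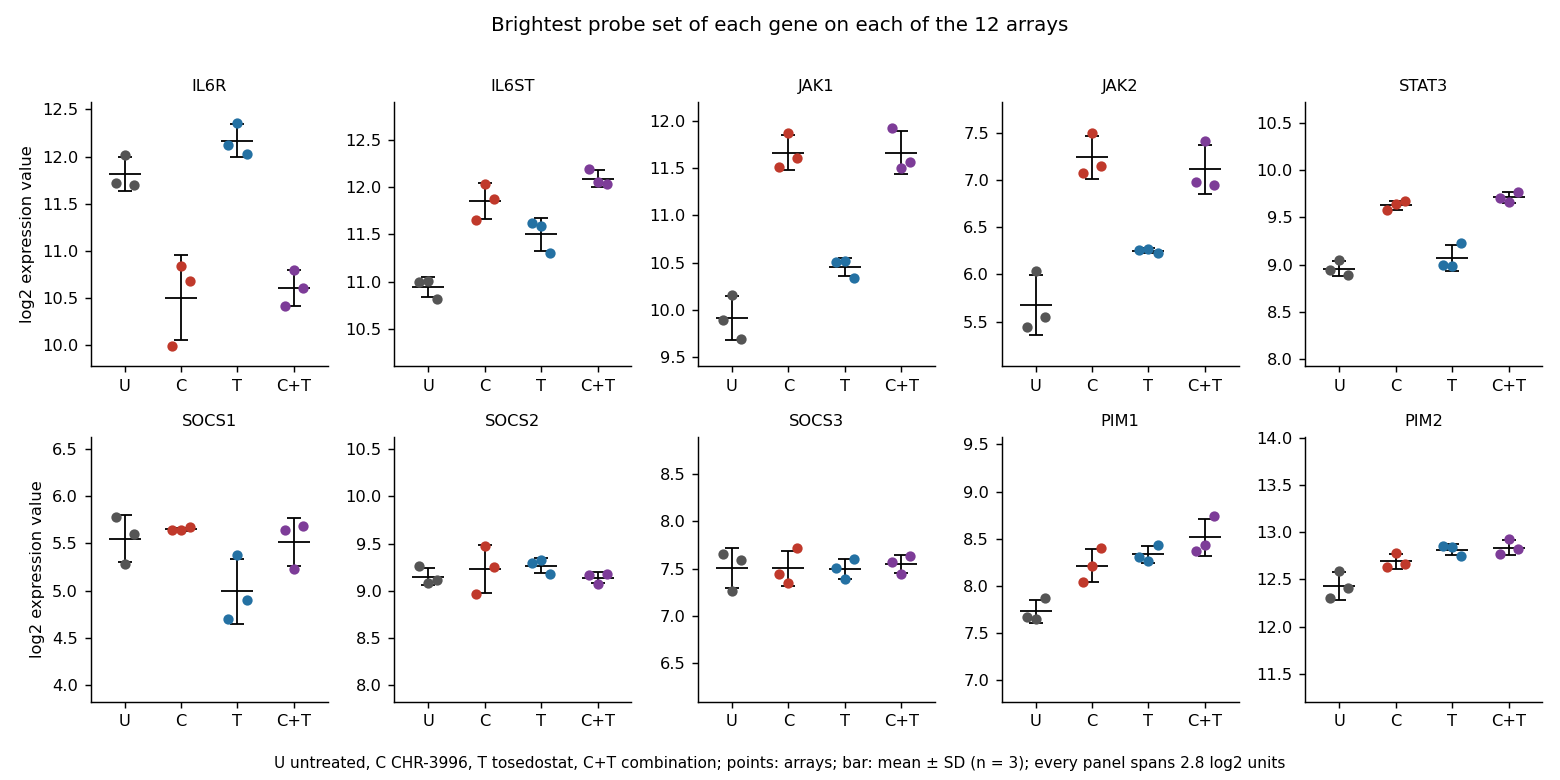
Level of the brightest probe set of each of the 10 genes, as a log2 value, on each array (points), with the mean and SD of 3 arrays (bars) for untreated cells (U), CHR-3996 (C), tosedostat (T) and the combination (C+T). IL6R sits lower and IL6ST, JAK1, JAK2 and STAT3 sit higher in C and C+T than in U, without overlap, while the 4 groups of SOCS2 and of SOCS3 overlap.

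The IL6R gene encodes the chain that binds interleukin-6 itself. Its brightest probe set, 226333_at, read 11.72, 12.02 and 11.70 in untreated cells, 10.00, 10.84 and 10.68 under CHR-3996, 12.12, 12.36 and 12.03 under tosedostat and 10.42, 10.79 and 10.61 under the combination. The arrays of both groups that received CHR-3996 lay below all arrays of the groups that did not. The expression of IL6R fell by 1.31 under CHR-3996 (SE 0.21, adjusted p = 0.000372), to a level 2.47-fold lower, and fell by 1.20 under the combination (SE 0.21, adjusted p = 0.000652). A second probe set, 205945_at, fell by 1.48 and by 1.20. The third, 217489_s_at, read 5.997, 5.206 and 4.159 in untreated cells and 2.54, 3.15 and 2.74 under CHR-3996, and was above the 40th percentile on 3 arrays, 2 of them untreated, so that it entered the test through the groups in which it was high. Under tosedostat IL6R differed from untreated cells by 0.36 (95% interval -0.11 to 0.82, adjusted p = 0.459). All 3 arrays were above the highest untreated array, the nearest narrowly, at 12.03 beside 12.02. Probe set 205945_at differed by 0.39 (adjusted p = 0.516), with overlapping arrays, and 217489_s_at by -0.74 (adjusted p = 0.378). The mean of the 3 probe sets differed by 0.0007 (adjusted p = 0.999).

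The IL6ST gene encodes gp130, which the whole interleukin-6 family of cytokines uses to signal. Probe set 212195_at read 10.99, 11.01 and 10.82 in untreated cells, 11.65, 12.03 and 11.88 under CHR-3996, 11.62, 11.58 and 11.30 under tosedostat and 12.19, 12.06 and 12.03 under the combination. Every treated array lay above every untreated array, and the order of the group means was untreated, tosedostat, CHR-3996, combination. IL6ST rose by 0.91 under CHR-3996 (SE 0.13, adjusted p = 0.000195), by 0.56 under tosedostat (SE 0.13, adjusted p = 0.0448) and by 1.15 under the combination (SE 0.13, adjusted p = 3.47e-05). The combination was above tosedostat by 0.59 (adjusted p = 0.00415, and 0.0544 with equal array medians) and differed from CHR-3996 by 0.24 (95% interval -0.06 to 0.53, adjusted p = 0.57).

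The other probe sets of IL6ST moved less evenly. Probe set 212196_at rose by 0.85 under CHR-3996 and by 1.30 under the combination, and 204864_s_at rose by 0.57 under CHR-3996 (adjusted p = 0.0496) but not under the combination, where it differed by 0.14 (95% interval -0.33 to 0.61) and by -0.43 from CHR-3996 (-0.90 to 0.04). Conversely 211000_s_at was called under the combination, at 0.83 (adjusted p = 0.0201), and not under CHR-3996, at 0.54, and 204863_s_at was called in neither, but in both with the replicate block. The calls of 204864_s_at and 211000_s_at were lost under both other scalings. The 2 probe sets of IL6ST that were not tested lay below the filter, and 1 of them, 234474_x_at, read 0.71, 0.58 and 0.52 under CHR-3996 against 2.05 to 3.50 on the other 9 arrays.

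Since both chains were read on the same array, the difference of their values is unchanged by any shift of a whole array. The IL6ST value (212195_at) minus the IL6R value (226333_at), whose zero has no meaning, was -0.73, -1.01 and -0.88 in untreated cells, 1.65, 1.19 and 1.20 under CHR-3996, -0.50, -0.78 and -0.73 under tosedostat and 1.77, 1.26 and 1.42 under the combination. The 6 arrays with CHR-3996 formed a range apart from the 6 without it. Against untreated cells the mean difference shifted by 2.22 under CHR-3996 and by 2.36 under the combination, and by 0.20 under tosedostat, where the arrays were -0.67 ± 0.15 (SD, n = 3) beside -0.87 ± 0.14.

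The kinases that phosphorylate the receptor and STAT3 had the largest rises among the brightest probe sets of the 10 genes under CHR-3996 and under the combination. With quantile normalization, however, IL6ST rose slightly more than JAK2 under the combination, by 1.09 beside 1.06. For JAK1, probe set 201648_at read 9.90, 10.15 and 9.69 in untreated cells, 11.51, 11.87 and 11.61 under CHR-3996, 10.51, 10.52 and 10.34 under tosedostat and 11.93, 11.50 and 11.57 under the combination. The tosedostat arrays lay between the untreated arrays and those with CHR-3996, with no overlap on either side. The difference of 0.54 from untreated cells under tosedostat (95% interval 0.19 to 0.90, adjusted p = 0.1005) was not called. JAK1 rose by 1.75 under CHR-3996 (SE 0.16, adjusted p = 6.64e-06), a 3.37-fold change, and by 1.75 under the combination (SE 0.16, adjusted p = 6.21e-06). The difference of the combination from CHR-3996 was 0.00, with a 95% interval of -0.35 to 0.36. Probe sets 1552610_a_at and 1552611_a_at rose by 1.26 and 2.14 under CHR-3996. The other 2 probe sets of JAK1 read between 3.27 and 5.07 on all arrays, around the 40th percentile (4.41 to 4.65), and did not follow: 239695_at differed by 0.15 under CHR-3996 and 0.02 under the combination, and 240613_at by -0.12 and, called lower, -0.83 (adjusted p = 0.0475). Probe set 240613_at was above the 40th percentile on 3 arrays, 2 of them untreated and none of the combination, so that it entered the test through groups in which it was high. Its call was lost with no filter, with trend and robust options, with the compared groups alone and in 8 of the 12 fits that left out an array.

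JAK2 encodes the second kinase of the receptor complex. Its probe set 205841_at read 5.44, 6.04 and 5.55 in untreated cells, 7.07, 7.50 and 7.15 under CHR-3996, 6.26, 6.27 and 6.23 under tosedostat and 6.98, 7.41 and 6.95 under the combination. The lowest array with CHR-3996 stood above the highest tosedostat array, which in turn stood above all untreated arrays. JAK2 rose by 1.56 under CHR-3996 (SE 0.18, adjusted p = 4.08e-05), or 2.96-fold, and by 1.44 under the combination (SE 0.18, adjusted p = 7.48e-05), and 205842_s_at rose by 1.15 and 1.17. The untested probe set 1562031_at read 1.23 to 4.32 over the 12 arrays.

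STAT3, the transcription factor that carries the signal to the nucleus, rose less than the kinases. Probe set 208991_at read 8.94, 9.05 and 8.89 in untreated cells, 9.58, 9.64 and 9.67 under CHR-3996, 8.997, 8.988 and 9.232 under tosedostat and 9.71, 9.66 and 9.77 under the combination. The tosedostat arrays overlapped the untreated ones, and the other 2 groups stood above both. STAT3 rose by 0.67 under CHR-3996 (SE 0.10, adjusted p = 0.000307) and by 0.76 under the combination (SE 0.10, adjusted p = 0.000131), and under tosedostat it differed by 0.12 (95% interval -0.12 to 0.35). Its other tested probe sets rose by 0.51 (208992_s_at) and 1.00 (225289_at) under CHR-3996 and by 0.82 and 0.88 under the combination. The call of 208992_s_at under CHR-3996 was lost with quantile normalization (0.16) and equal array medians (0.29).

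**Figure D2:**
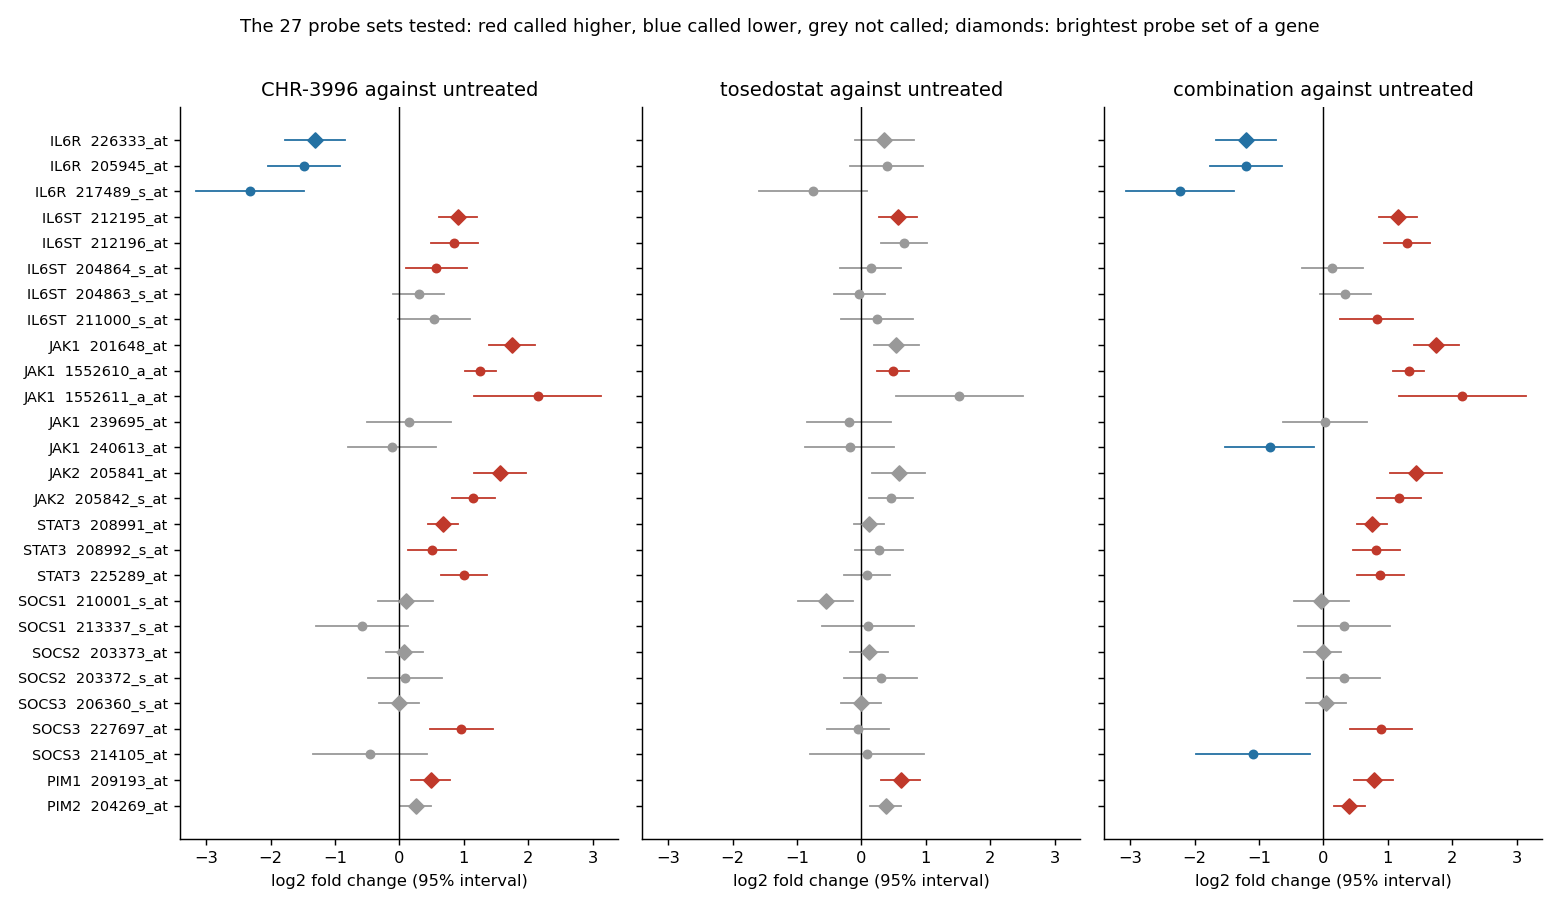
Log2 fold change against untreated cells, with its 95% interval, of the 27 probe sets tested, 1 panel for each treatment, red where called higher, blue where called lower and grey where not called, with diamonds for the brightest probe set of a gene. The 3 probe sets of IL6R lie left of 0 and those of JAK2 and STAT3 right of 0 under CHR-3996 and the combination, whereas 3 probe sets are called under tosedostat.

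The SOCS genes encode the feedback inhibitors of the route. Probe set 206360_s_at of SOCS3, itself a target of STAT3, read 7.66, 7.26 and 7.59 in untreated cells, 7.44, 7.35 and 7.72 under CHR-3996, 7.51, 7.39 and 7.60 under tosedostat and 7.57, 7.44 and 7.64 under the combination. The 4 groups overlapped throughout. The difference from untreated cells was 0.00 under CHR-3996 (95% interval -0.31 to 0.31), -0.01 under tosedostat (-0.32 to 0.30) and 0.04 under the combination (-0.27 to 0.35). The value under CHR-3996 depended on the scaling. It was -0.36 with quantile normalization (adjusted p = 0.0919) and -0.22 with equal array medians (adjusted p = 0.204), and was called in neither.

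A second probe set of SOCS3 did move. Probe set 227697_at read 5.54, 5.87 and 5.53 in untreated cells and 6.86, 6.48 and 6.48 under CHR-3996, and 7.05, 6.30 and 6.26 under the combination. These 6 arrays lay above the 3 untreated arrays and above the tosedostat arrays, which read 5.81, 5.36 and 5.60. It rose by 0.96 under CHR-3996 (SE 0.22, adjusted p = 0.00386) and by 0.89 under the combination (SE 0.22, adjusted p = 0.00603), or 0.55 with quantile normalization (adjusted p = 0.0678). The dim probe set 214105_at went the other way, by -0.46 under CHR-3996 (adjusted p = 0.395) and, called lower, by -1.10 under the combination (adjusted p = 0.0437). It was above the 40th percentile on 4 arrays, 2 of them untreated and 2 with tosedostat, the groups in which it was high. The call was lost with the replicate block, with no filter, with trend and robust options and in 7 of the 12 fits that left out an array, and the block also lost its call against tosedostat. The probe sets of SOCS3 thus disagreed, and no direction is given for the gene.

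**Figure D3:**
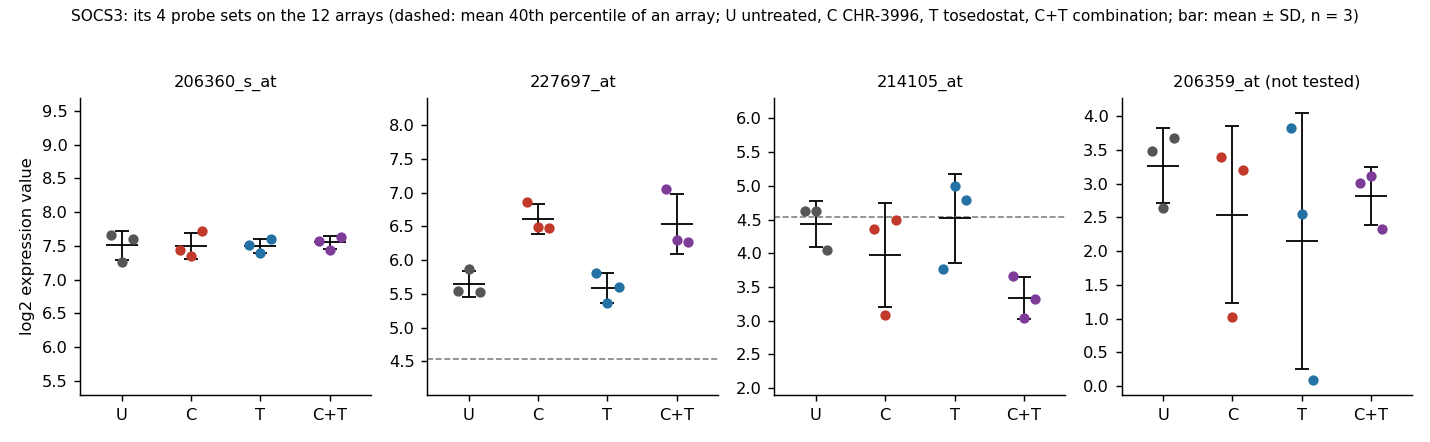
The 4 probe sets of SOCS3, as log2 values on each array (points) with the mean and SD of 3 arrays (bars) for untreated cells (U), CHR-3996 (C), tosedostat (T) and the combination (C+T); the dashed line is the mean 40th percentile of an array. The groups overlap for 206360_s_at, while for 227697_at the C and C+T arrays, at 6.26 to 7.05, lie above the U and T arrays, at 5.36 to 5.87.

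SOCS1 and SOCS2, which inhibit the JAK kinases and growth hormone type receptors, had no called probe set in any comparison of the fit to the authors' values. For SOCS1, 210001_s_at read 5.77, 5.28 and 5.60 in untreated cells, 5.64, 5.64 and 5.67 under CHR-3996, 4.70, 5.38 and 4.90 under tosedostat and 5.64, 5.23 and 5.68 under the combination. It differed by 0.10 under CHR-3996 (95% interval -0.33 to 0.53), by -0.56 under tosedostat (-0.98 to -0.13, adjusted p = 0.167) and by -0.03 under the combination (-0.46 to 0.39). For SOCS2, 203373_at read 9.26, 9.09 and 9.11 in untreated cells, 8.97, 9.48 and 9.25 under CHR-3996, 9.30, 9.32 and 9.18 under tosedostat and 9.17, 9.08 and 9.18 under the combination. The SOCS2 groups overlapped, and the differences were 0.08 (-0.21 to 0.37), 0.11 (-0.18 to 0.41) and -0.01 (-0.30 to 0.28). Other settings called some of them. With quantile normalization 203373_at of SOCS2 was lower under the combination (-0.29, adjusted p = 0.0288), and against tosedostat it was lower with quantile normalization (-0.32, adjusted p = 0.0193) and with equal array medians (-0.36, adjusted p = 0.0392). For SOCS1, 210001_s_at was called higher in the combination than under tosedostat without untreated, tosedostat or combination replicate 2, with adjusted p down to 0.0113 beside 0.0504 with all arrays, and 213337_s_at was called lower under CHR-3996 without CHR-3996 replicate 1. The untested probe set 209999_x_at of SOCS1 was at 0.00 on 10 of 12 arrays.

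The PIM kinases lie downstream of STAT3. Probe set 209193_at of PIM1 read 7.67, 7.65 and 7.87 in untreated cells, 8.04, 8.21 and 8.40 under CHR-3996, 8.31, 8.26 and 8.44 under tosedostat and 8.37, 8.43 and 8.74 under the combination. On the authors' scale all treated arrays were above the untreated arrays, and the 3 treated groups overlapped. PIM1 rose by 0.61 under tosedostat (SE 0.14, adjusted p = 0.0365), by 0.49 under CHR-3996 (SE 0.14, adjusted p = 0.0133) and by 0.78 under the combination (SE 0.14, adjusted p = 0.00068). The CHR-3996 call was lost with quantile normalization (0.18, adjusted p = 0.314), with equal array medians (0.27, adjusted p = 0.122) and without CHR-3996 replicate 3 (0.39, adjusted p = 0.0574). The rise under the combination was 0.40 with quantile normalization (adjusted p = 0.0361). The tosedostat call was lost in 7 of the 12 fits that left out an array.

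For PIM2, 204269_at read 12.30, 12.59 and 12.41 in untreated cells, 12.63, 12.78 and 12.66 under CHR-3996, 12.86, 12.84 and 12.75 under tosedostat and 12.76, 12.93 and 12.82 under the combination. On the authors' scale, where arrays with CHR-3996 had higher medians, the treated arrays again stood above the untreated arrays, and overlapped each other. The difference was 0.26 under CHR-3996 (95% interval 0.02 to 0.50, adjusted p = 0.0789) and 0.38 under tosedostat (0.14 to 0.62, adjusted p = 0.0904), neither of which was called. Under CHR-3996 it was called with quantile normalization (0.34, adjusted p = 0.0167), with the filter at the 60th percentile (adjusted p = 0.0483), with the replicate block (adjusted p = 0.0436), with trend and robust options (adjusted p = 0.0204) and without untreated replicate 2, and with equal array medians the difference was 0.04. PIM2 rose by 0.40 under the combination (SE 0.11, adjusted p = 0.0105), a call that was lost with equal array medians (0.16, adjusted p = 0.282).

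Tosedostat alone called 3 of the 27 probe sets, all higher, beside 3.23% of all probe sets tested (3.68% in either direction). They were 212195_at of IL6ST, 1552610_a_at of JAK1, which rose by 0.49 (SE 0.11, adjusted p = 0.0354), and 209193_at of PIM1, and 10 probe sets had an unadjusted p under 0.05. The other JAK1 probe sets differed by 0.54 (201648_at), 1.52 (1552611_a_at), -0.19 (239695_at) and -0.18 (240613_at), none of them called. With the replicate number as a block, which pairs same-numbered untreated and tosedostat arrays, 8 were called, all higher: 2 of IL6ST, 2 of JAK1, both of JAK2, and those of PIM1 and PIM2. JAK2 (205841_at) then had the same difference of 0.58 with an adjusted p of 0.0275, against 0.131 without the block, and PIM2 had 0.0445. The shares of all probe sets called with the block, or with an unadjusted p under 0.05, are not given here. The counts of 8 and 10 are therefore not set against the array as a whole. Quantile normalization lost the call of PIM1 and equal array medians that of IL6ST. None of the 3 calls was left when the untreated and tosedostat arrays were fitted alone, with no filter, or without untreated replicate 1 or 3, tosedostat replicate 1 or 2, or combination replicate 2. One call was left without untreated replicate 2, tosedostat replicate 3, CHR-3996 replicate 3 or combination replicate 1 or 3.

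In the combination 14 probe sets were called higher and 5 lower, beside 32% and 14.1% of all probe sets tested (46.1% in all), and 11 of the 19 were at least 2-fold. The share of 2-fold changes among all calls is again not given. The 5 lower calls were the 3 of IL6R and the dim 240613_at of JAK1 and 214105_at of SOCS3. They became 3 with no filter, with limma's trend and robust options, or without untreated replicate 2, tosedostat replicate 3 or combination replicate 2 or 3, and 2 with the filter at the 60th percentile. By gene, 6 of 10 were higher and 1 was lower, beside 34.6% and 15.9% (50.5% in all). Against tosedostat, 10 probe sets were higher and 4 lower, beside 28.4% and 13.7% (42.1% in all), or 8 and 5 with quantile normalization and 7 and 6 with equal array medians. IL6R was 1.56 lower (log2 fold change -1.56, SE 0.21, adjusted p = 0.000132), and JAK1, JAK2 and STAT3 were higher by 1.21, 0.86 and 0.64. PIM1 and PIM2 differed from tosedostat by 0.18 (95% interval -0.13 to 0.48) and 0.02 (-0.22 to 0.26). The CHR-3996, tosedostat and combination comparisons above share the untreated arrays.

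Adding tosedostat to CHR-3996 gave no called probe set in limma's test, 0 of 27, beside 0.0632% of all tested. At an unadjusted p under 0.05 there were 3, which were 212196_at of IL6ST (0.45 higher, 95% interval 0.08 to 0.81, adjusted p = 0.383), 213337_s_at of SOCS1 (0.90 higher, 0.18 to 1.61, adjusted p = 0.376) and 240613_at of JAK1 (-0.72, -1.40 to -0.03, adjusted p = 0.453). The share of all probe sets at that threshold is not given here. For the brightest probe sets of IL6R, JAK2 and STAT3 the differences were 0.10 (-0.36 to 0.56), -0.13 (-0.53 to 0.28) and 0.08 (-0.15 to 0.31).

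The interaction asked whether the change under the combination departs from the sum of the changes under the single compounds. In limma's test 0 of 27 probe sets were called, beside 0.206% of all, and 4 had an unadjusted p under 0.05, all with a combination below the sum. They belonged to the kinases: JAK1 201648_at at -0.54 (95% interval -1.04 to -0.04, adjusted p = 0.448), 1552610_a_at at -0.43 (-0.77 to -0.08, adjusted p = 0.374) and 1552611_a_at at -1.51 (-2.90 to -0.12, adjusted p = 0.447), and JAK2 205841_at at -0.70 (-1.28 to -0.13, adjusted p = 0.38). Of all probe sets called for the interaction 10.7% had a combination above the sum, so the direction below it was the usual one among them. The share of all probe sets with an unadjusted p under 0.05 is not given here. The interval for STAT3 was -0.36 to 0.29.

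**Figure D4:**
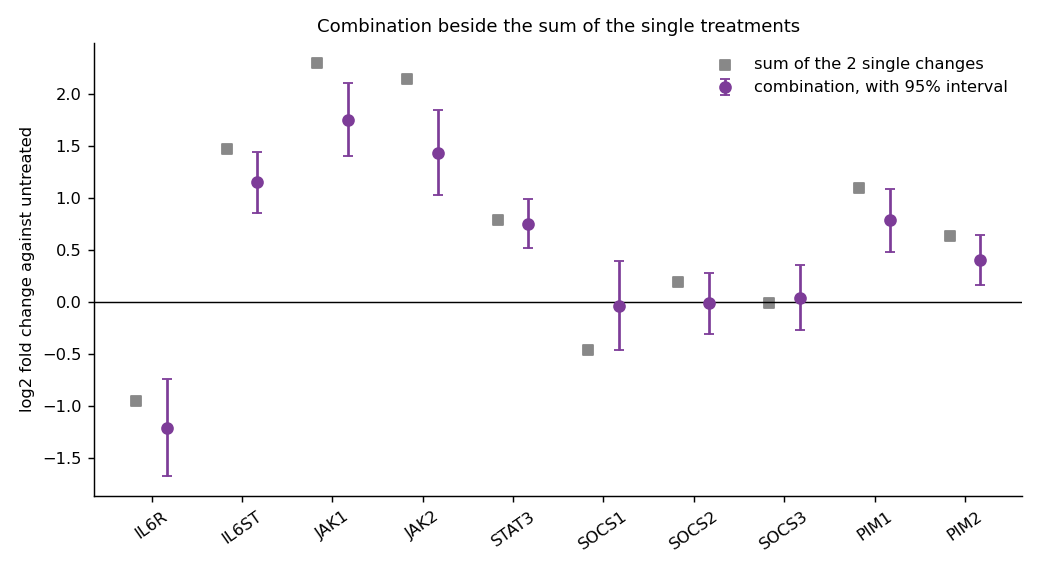
For the brightest probe set of each of the 10 genes, the sum of the 2 single log2 fold changes against untreated cells (grey squares) beside the log2 fold change of the combination with its 95% interval (purple points). The square of JAK1 lies above its point by 0.54 and that of JAK2 by 0.70, and no interaction was called.

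The wider pathway was read from a list of 62 further genes, of which 50 were tested. CHR-3996 gave 19 higher and 13 lower, with a median log2 fold change of 0.19 beside 0.11 over all genes, and beside 31.7% of all genes called higher and 18% lower. Tosedostat called 7 higher and 0 lower, with a median of 0.19 beside 0.04, and a background of 4.25% higher and 0.545% lower. Under the combination 21 were higher and 11 lower, with a median of 0.27 beside 0.15, and beside 34.6% and 15.9% of all genes. The split depended on the scaling. Equal array medians gave 14 higher and 16 lower for CHR-3996, and 17 and 18 for the combination. Quantile normalization gave 20 and 17, and 19 and 16. Which of the pathway genes named below lost their call under either scaling is not given here, so their smaller changes may depend on the scale.

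The ligands and receptors of the family showed the following. Of 9 ligands 3 were tested, and OSM, which encodes oncostatin M, fell by 1.21 under CHR-3996 and by 1.47 under the combination, while IL6 itself differed by 0.04 and 0.08. Of the 5 tested receptors, IL11RA, the receptor of interleukin-11, rose by 2.58 (adjusted p = 0.00025) and 2.86 (adjusted p = 0.000117), from 3.41 ± 0.52 (SD, n = 3) in untreated cells. It was above the 40th percentile on the 6 arrays with CHR-3996 and on no other, so that it entered the test through the groups in which it was high. LIFR, the partner of gp130 for leukaemia inhibitory factor, rose by 1.42 and 1.27. IL27RA fell by 1.56 under CHR-3996 (adjusted p = 0.0179), and OSMR fell by 1.94 under the combination (adjusted p = 0.0132), from 4.41 ± 0.53. Each of these 2 was called lower in that comparison only. IL27RA was above the 40th percentile on 1 array with CHR-3996 alone and on all arrays of the other groups. OSMR was above it on 1 untreated array, 2 with tosedostat and none with CHR-3996. OSMR thus also entered the test through groups in which it was high, and the sizes of the IL11RA, IL27RA and OSMR changes rest on dim values. The proteases ADAM10 and ADAM17, which can cut the interleukin-6 receptor from the cell surface, rose by 0.47 and 0.70 under CHR-3996 and by 0.49 and 0.76 under the combination.

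Among the 13 tested inhibitors other than the 3 SOCS genes above, CHR-3996 raised 4 and lowered 5, beside 31.7% and 18% of all genes. SOCS4 and SOCS5 rose by 1.07 and 0.98, and PIAS1, an inhibitor of STAT proteins, rose by 0.58. The phosphatases PTPN2 and PTPN6, which act on JAK and STAT proteins, fell by 1.01 and 0.99, and by 0.81 and 1.50 under the combination. Of the 6 other JAK and STAT genes tested, CHR-3996 raised 2 and lowered 2, beside 31.7% and 18% of all genes. STAT4 and STAT6 rose by 2.25 and 1.07 under CHR-3996, and STAT5A and STAT5B fell by 0.88 and 0.79. STAT5A was above the 40th percentile on 3 untreated arrays and on 1 array with CHR-3996 alone. The size of its fall thus rests on dim values. Of 5 adaptors that link the receptor to RAS, 3 rose under CHR-3996, beside 31.7% of all genes, SOS1 by 1.02, GAB1 by 1.14 and SHC1 by 0.60, with none lower.

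Of 15 tested genes described as STAT3 targets, CHR-3996 raised 6 and lowered 4, with 5 and 0 under tosedostat and 7 and 4 under the combination. The shares of all genes called higher and lower were 31.7% and 18%, 4.25% and 0.545%, and 34.6% and 15.9%. BCL6, a transcriptional repressor, rose by 4.80 under CHR-3996 (adjusted p = 3.31e-08) and 4.89 under the combination, from 3.68 ± 0.31 (SD, n = 3) to 8.48 ± 0.23 and 8.57 ± 0.10. FOS, an immediate early transcription factor, rose by 3.92 (adjusted p = 0.000357) and 3.76, from 4.31 ± 0.46. BCL6 was above the 40th percentile only on the 6 arrays with CHR-3996. It thus entered the test, and the counts of targets raised, through the groups in which it was high. FOS was above it on these arrays and on 2 untreated arrays and 1 with tosedostat. The folds of both genes rest on a dim baseline. BIRC5, which encodes survivin, fell by 2.24 and 1.73, and CCND1, which encodes cyclin D1, fell by 2.01 and fell by 2.91.

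The 7 genes called higher under tosedostat were led by CCND2, which encodes cyclin D2 and rose by 0.98 (adjusted p = 0.0234), STAT6, by 0.97 (adjusted p = 0.0109), and BCL2, an inhibitor of apoptosis, by 0.96 (adjusted p = 0.0259). The other 4 were BCL2L1, another survival gene, by 0.87, IRF1 by 0.75, MCL1 by 0.56 and PIAS3 by 0.49. Under CHR-3996 the values of CCND2 and BCL2L1 were 9.97 ± 0.38 and 7.98 ± 0.26, beside 10.47 ± 0.26 and 7.98 ± 0.16 in untreated cells, and neither was called.

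**Figure D5:**
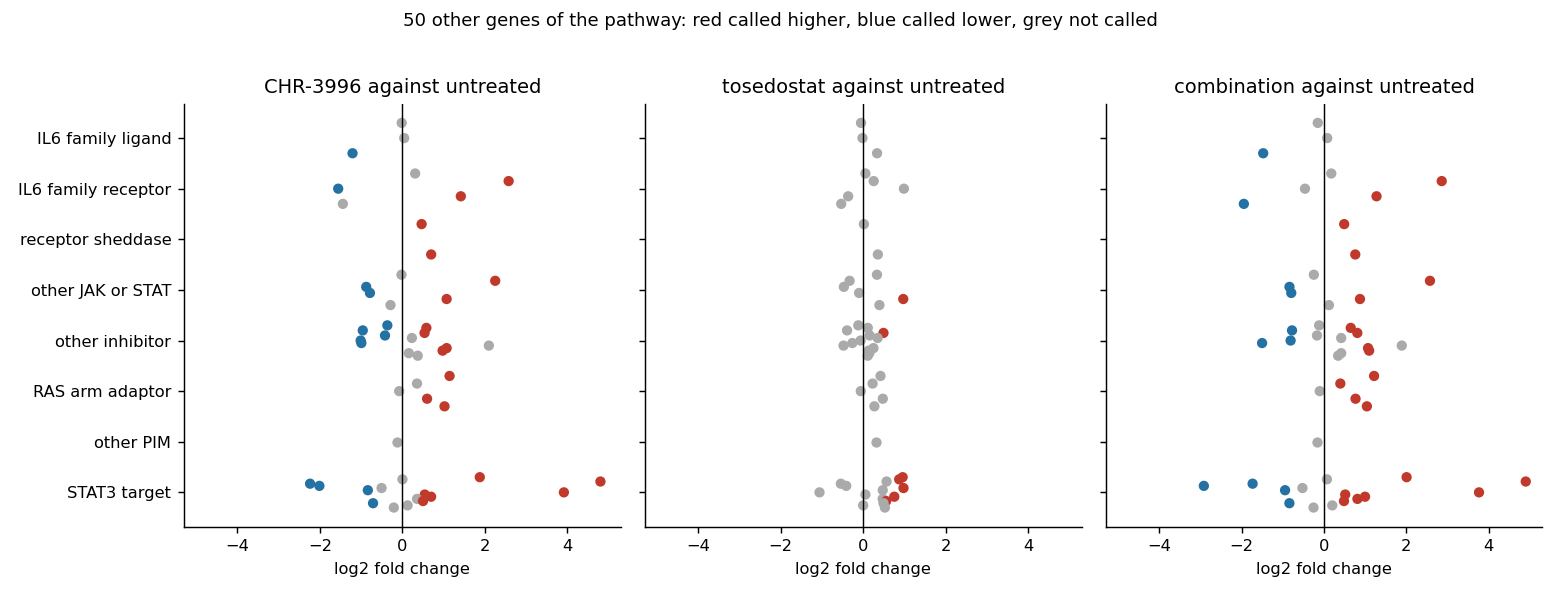
Log2 fold change against untreated cells of the 50 other tested genes of the pathway, 1 panel for each treatment, red where called higher, blue where called lower and grey where not called. Under tosedostat 7 points are red and none is blue, and the widest changes, those of BCL6 and FOS, stand in the CHR-3996 and combination panels.

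The genes whose levels over the 12 arrays were most like those of a member are given by Pearson's r between brightest probe sets. The 12 points share the 4 groups, so for members that changed under treatment r mostly reflects the treatments. For IL6R these were TRIM8 (0.991) and FERMT3 (0.990), for IL6ST SHFL (0.986) and SLC38A2 (0.985), for JAK1 PAM (0.998) and TPRG1L (0.996), and for JAK2 SLC24A1 (0.988) and ARHGAP25 (0.988). STAT3 was most like SNX1 (0.992) and SNX10 (0.989), PIM1 most like HLA-DRA (0.947) and S1PR2 (0.940), and PIM2 most like RHBDD1 (0.985) and CCDC174 (0.971). Probe set 206360_s_at of SOCS3 was most like HES2 (0.923) and PACS2 (0.892). Its group means lay between 7.50 and 7.55, so here r mostly follows differences among arrays of the same group.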

How the data were processed

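RNA of H929 cells from 12 samples in 4 groups of 3 was amplified by the authors and hybridized to U133 Plus 2.0 arrays. The deposited values are log2 expression values normalized by the authors in dChip, and the version, normalization and summary method cannot be given from the sources used here. Between 1141 and 1344 values of an array are exactly 0, and at most 9 lie below 0. Leaving out 62 controls, 36395 of 54613 probe sets exceeded an array's 40th percentile on 3 or more arrays. All 12 arrays entered a single limma fit (version 3.58.1, R 4.3.3) with a coefficient per group, leaving 8 residual degrees of freedom. Each of its 6 contrasts received its own Benjamini-Hochberg adjustment. The platform annotation supplied the symbols, brought up to date with RefSeq. A gene is represented by its brightest tested probe set with 1 symbol. The number of arrays limits the precision. Plots used matplotlib 3.10.9 (Python 3.11.15).

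The members and gene lists were chosen with earlier results of these data known. Named were the 10 members, the called pathway genes with the 3 highest and 3 lowest changes against untreated cells, and the 2 genes most like each member that had a call; other pathway genes were named after their values were seen. Replicate numbers are shared between groups. After group means were subtracted, the residuals of arrays with equal numbers correlated above 0.1 in every pair of untreated and tosedostat arrays (0.126 to 0.288), as they did among the treated groups (0.116 to 0.28). For untreated and CHR-3996 arrays (0.036 to 0.12) and untreated and combination arrays (0.098 to 0.168) some pairs fell short. Of the pathway genes, IL11, LIF, CNTF, CTF1, IL31RA and CEBPD did not pass the filter, and the others without a test were not analysed here. As alternatives, arrays were quantile normalized or set to equal medians, the filter was dropped or moved to the 60th percentile, replicate numbers were blocked, limma's trend and robust options were used, contrasts were fitted on their own groups, probe sets of a gene were averaged, each array was left out, and the fold, difference and unadjusted p criteria of the study's methods were applied.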

Additional observations from a re-analysis of the deposited data

How the results depend on the processing

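Under CHR-3996 and under the combination, the brightest probe sets of IL6R, IL6ST, JAK1, JAK2 and STAT3 kept direction and call under every alternative except the study's criteria. Calls of other probe sets of IL6ST, JAK1 and STAT3 were lost in some settings, as given above. Those ask for a 2-fold change, a linear difference over 100 and an unadjusted p under 0.05, and left 5 member probe sets under CHR-3996, 6 under the combination and 3 for the combination against tosedostat, with 13 pathway genes in each of the first 2 comparisons and 0 of either kind under tosedostat. IL6ST and STAT3 under CHR-3996, and JAK2 and STAT3 under the combination, missed them. The shares of all probe sets and genes that met these criteria, or were called under the alternatives below, are not given here. The 3 member probe sets called under tosedostat became 0 with no filter or with the compared groups alone, 5 with the filter at the 60th percentile, 6 with limma's trend and robust options, 8 with the replicate block, and 0 to 4 when an array was left out. The 7 pathway genes became 3 with no filter or the compared groups alone, and 2 to 7 when an array was left out, where untreated replicates 1 and 3 and each tosedostat replicate moved the count by over 1.5 times. Without a filter 1 member probe set was called between the combination and CHR-3996, 234474_x_at of IL6ST. The replicate block moved no other count of calls printed here by over 1.5 times, and called 1 pathway gene in the interaction, where 0 were called without it.

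The changes that turned sign were not called in the fit to the authors' values. Not all lay near 0 there, as the IL6R interaction was -0.25 and PIM1 against tosedostat was 0.18. With quantile normalization, SOCS1 and SOCS2 under CHR-3996 became -0.18 and -0.10, SOCS3 under the combination -0.40, JAK1, STAT3 and SOCS3 for the combination against CHR-3996 -0.12, -0.0092 and -0.036, and SOCS3 and PIM1 for the combination against tosedostat -0.29 and -0.081. With equal array medians the same values were -0.12 and -0.14 for SOCS1 and SOCS2, -0.20 for SOCS3 and -0.024 for JAK1, and against tosedostat -0.18 for SOCS3, -0.059 for PIM1 and -0.22 for PIM2. With the mean of a gene's tested probe sets, SOCS1 and SOCS3 under CHR-3996 became -0.24 and 0.17, SOCS3 under tosedostat 0.0056, and SOCS1, SOCS2 and SOCS3 under the combination 0.14, 0.15 and -0.053. The same mean gave -0.15, 0.38, 0.068 and -0.22 for JAK1, SOCS1, SOCS2 and SOCS3 between the combination and CHR-3996, -0.059 for SOCS3 against tosedostat, and interactions of 0.16 for IL6R and -0.23 for SOCS3. The cause was not tested.

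Leaving out 1 array gave ranges that cross 0. Under CHR-3996 they were -0.036 to 0.21 for SOCS1, -0.044 to 0.21 for SOCS2 and -0.13 to 0.073 for SOCS3, under tosedostat -0.13 to 0.070 for SOCS3, and under the combination -0.17 to 0.11 for SOCS1, -0.045 to 0.043 for SOCS2 and -0.077 to 0.12 for SOCS3. Between the combination and CHR-3996 they were -0.15 to 0.27 for IL6R, -0.13 to 0.11 for JAK1, -0.28 to 0.0023 for JAK2, -0.22 to 0.010 for SOCS1, -0.22 to 0.033 for SOCS2 and -0.027 to 0.16 for SOCS3. Against tosedostat they were -0.0033 to 0.10 for SOCS3 and -0.024 to 0.057 for PIM2, and for the interaction -0.022 to 0.18 for SOCS3 and -0.076 to 0.048 for STAT3. Probe sets near the 40th percentile limit what can be read of SOCS1 and of the dim probe sets of IL6ST, JAK1 and SOCS3.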
